A study of Papio anubis with 12 samples.

Results

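miR-210, miR-21, miR-22 and miR-34a are microRNAs (miRNAs) often read as signs of low oxygen, injury and stress, and their mature forms were described here in frontal cortex from fetal baboons (Papio anubis). Every row whose precursor was hsa-mir-210, hsa-mir-21, hsa-mir-22 or hsa-mir-34a was taken (hsa- marks the human name), which gave 7 mature miRNAs from 4 hairpins, of 1921 mature names in the table. They were miR-210, miR-21-5p, miR-21-3p, miR-22-5p, miR-22-3p, miR-34a-5p and miR-34a-3p, and each had a single row. Small RNA was sequenced from 12 fetuses on day 165 of gestation, 1 library per fetus. In 6 controls (replicates 1 to 3 female, 4 to 6 male) the mother fed freely on a primate biscuit diet. In 6 fetuses of the maternal nutrient restricted group (MNR; replicates 1 to 3 female, 4 to 6 male) the mother received 70% of what controls ate per kilogram. Dams are not named in the labels, so whether any fetuses share a mother is unknown. Levels are the authors' reads per 1000000 (RPM), relative to all counted reads of a library.

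A miRNA is cut from a hairpin precursor into a duplex with a 5p and a 3p strand, one of which usually stays in the silencing complex as the guide while the other is degraded. The guide pairs with messenger RNAs through its seed and lowers their stability or translation. miR-210 is the best known target of the hypoxia-inducible factors and represses mitochondrial iron-sulphur cluster assembly. miR-21 is induced in injured and inflamed tissue, and in the brain by reactive glia, and represses the growth inhibitor PDCD4. The primary transcript of miR-34a is switched on by p53, and miR-34a represses genes of cell cycle and survival such as SIRT1, CDK6 and BCL2. miR-22 is broadly expressed, abundant in heart and brain, and linked to histone deacetylases and cell survival.

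The libraries held 513029 to 1898763 counted reads in controls and 1078720 to 1464660 in MNR, so that 1 read was worth 0.527 to 1.95 RPM. Control replicate 6, a male, was the shallowest. Neuronal miRNAs (miR-9, miR-124, miR-128 and miR-137), which mark the labelled tissue, had reads in all 6 of their rows and summed to 87761 to 114473 RPM in controls and 97019 to 121839 RPM in MNR. Most miRNAs lay higher in MNR on the RPM scale: the median log2 difference of the 481 tested miRNAs was 0.23, and 78.4% were above 0. Median-ratio scaling, which sets that common shift aside, takes 0.22 on the log2 scale off the difference between MNR and control libraries, and its values are given beside those in RPM.

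The hairpins stood at very unequal levels. miR-22-3p was the ninth most abundant of the 481 tested miRNAs with 16491 RPM on average in the 12 fetuses, and miR-21-5p followed at 1126 RPM. miR-210 was at 62.6 RPM, miR-21-3p at 38.9 RPM, miR-22-5p at 24.01 RPM and miR-34a-5p at 14.7 RPM. miR-34a-3p averaged 0.215 RPM and was not tested, since a mean of at least 1 RPM was required. These RPM levels are of molecules of nearly the same length. miR-22-3p, miR-21-5p and miR-210 kept their order in 12 of 12 fetuses with no overlap of ranges. Neighbours further down overlapped: miR-210 exceeded miR-21-3p in 10 of 12 fetuses, and miR-21-3p exceeded miR-22-5p in 10 of 12, while miR-22-5p was above miR-34a-5p in 12 of 12 although their ranges met.

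The fetuses varied least in miR-21-5p. Its pooled standard deviation within diets was 0.19 on the log2(RPM + 1) scale, and 27 of the 481 tested miRNAs had a smaller one (median of all 0.42). The same spread was 0.33 for miR-210 and miR-22-3p, 0.34 for miR-22-5p, 0.54 for miR-21-3p and 0.58 for miR-34a-5p.

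**Figure D1:**
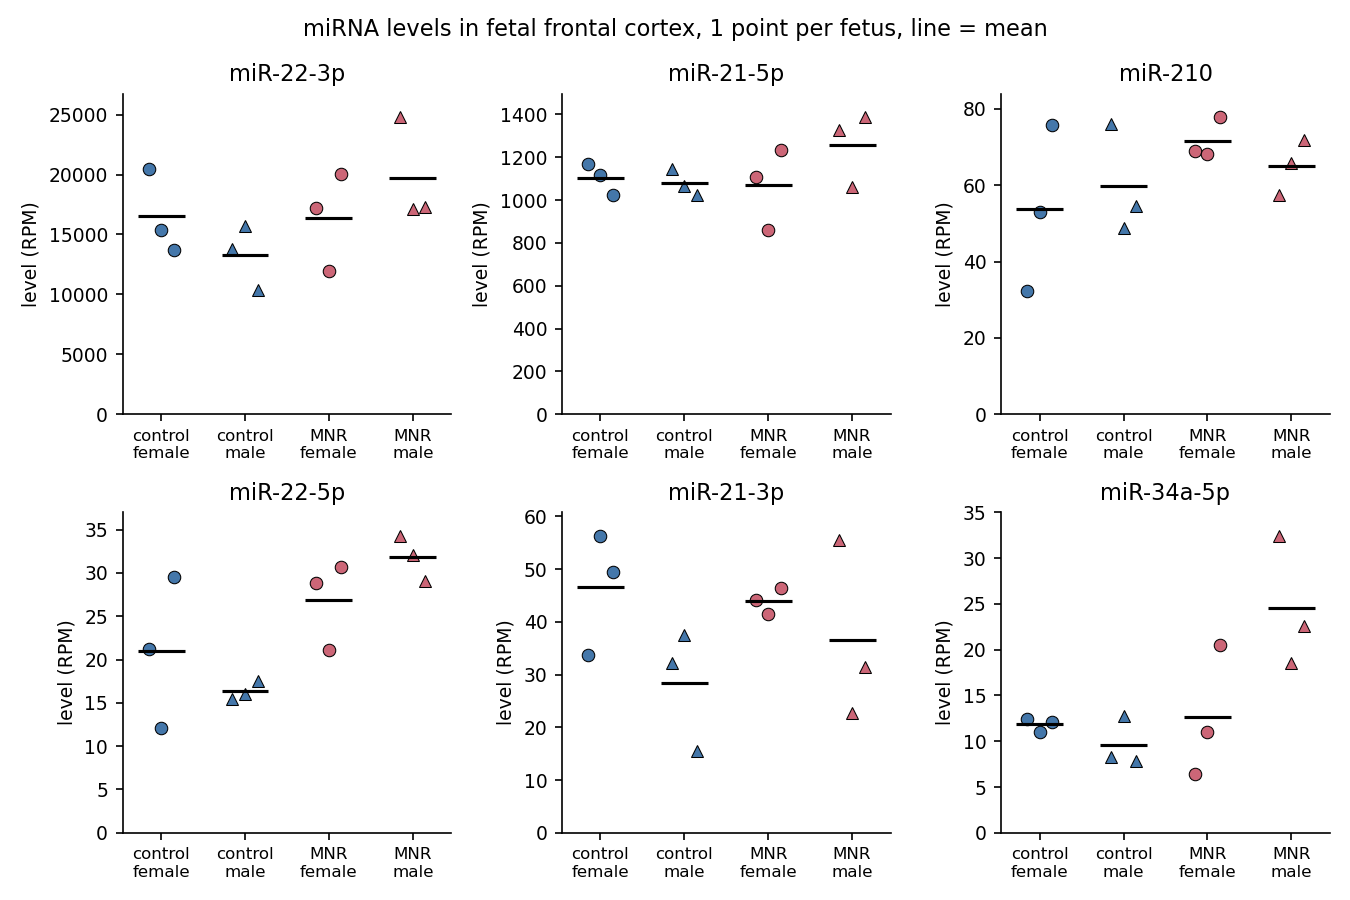
Levels in RPM (vertical axes, from 0) of the 6 tested miRNAs in each fetus, by diet (control blue, MNR red) and sex (circles female, triangles male), with a line at each mean of 3 fetuses. MNR males stand above control males with no overlap for miR-22-3p, miR-22-5p and miR-34a-5p, as in 19.3% of all 481 tested miRNAs. The female groups overlap for all 6. Of all tested miRNAs, 14.8% have every MNR female above every control female and 1.25% every one below.

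The comparison of diets asked whether restricted cortex carries a hypoxia, p53 or injury pattern in these miRNAs. None of the 6 tested passed the threshold, an adjusted p under 0.05 (limma on log2(RPM + 1), Benjamini-Hochberg over 481 miRNAs), against 2.7% of all tested miRNAs called by the same rule. At an unadjusted p under 0.05, 1 of the 6 was counted, miR-22-5p, against 21.8% of all. edgeR, DESeq2 and voom on recovered reads also called 0 of the 6, with 0, 0 and 1 at an unadjusted p under 0.05, and DESeq2 gave 3 of them no adjusted p. The share of all tested miRNAs at that unadjusted p is not given for these methods, so their counts have no background beside them. How many of all miRNAs each method called is given in the closing section. In none of the 6 did every MNR fetus exceed every control, which was so for 3.12% of all. All 6 differences in RPM were above 0, with a median of 0.29 beside 0.23 for all tested miRNAs. Under median-ratio scaling 4 of the 6 were above 0 and the median was 0.08, beside a median of 0.04 for all tested miRNAs. The tissue is bulk, so fewer cells of a type and less of a miRNA per cell cannot be told apart in any of these values.

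miR-210 (MIMAT0000267), the hypoxia-induced miRNA, was at 32.3, 53.02, 75.8, 76.1, 48.8 and 54.6 RPM in control replicates 1 to 6. In MNR replicates 1 to 6 it was at 69.1, 68.1, 77.8, 57.5, 65.8 and 71.9 RPM. The controls spread over a wider range than the MNR fetuses, and 1 of 6 MNR fetuses lay above the highest control, although 6 of 6 lay above the control median. Controls averaged 56.8 ± 16.9 RPM and restricted fetuses 68.4 ± 6.74 RPM (SD, n = 6 each). The log2 difference was 0.31 ± 0.20 (SE; limma adjusted p = 0.366), that is 1.24-fold on the log2(RPM + 1) scale with a 95% confidence interval of 0.928 to 1.66. After median-ratio scaling it was 0.10, with an interval of -0.35 to 0.55. Control replicate 1, at 32.3 RPM or 44 reads (exact 95% counting interval 23.4 to 43.3 RPM), was the lowest of the 12 fetuses, and without it the difference was 0.17.

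miR-21-5p (MIMAT0000076), the guide of the injury-induced hairpin, was the steadiest of the 6. Controls held 1168, 1115, 1025, 1145, 1064 and 1025 RPM in replicates 1 to 6. MNR fetuses held 1110, 860.4, 1234, 1325, 1061 and 1386 RPM. The MNR values lay on both sides of the controls, with 3 above the highest control and MNR replicate 2 below the lowest. The means were 1090 ± 61.3 and 1163 ± 193 RPM (SD, n = 6), and the log2 difference was 0.08 ± 0.13 (SE; limma adjusted p = 0.778). This is 1.05-fold with an interval of 0.875 to 1.27, the narrowest of the 6, and median-ratio scaling turned the difference to -0.14 (interval -0.36 to 0.09). Without MNR replicate 2 the difference was 0.16, without MNR replicate 4 it was 0.036 and without MNR replicate 6 it was 0.023.

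The partner strand miR-21-3p (MIMAT0004494) was at 33.7, 56.3, 49.5, 32.1, 37.5 and 15.6 RPM in control replicates 1 to 6. It was at 44.2, 41.5, 46.4, 55.6, 22.8 and 31.5 RPM in MNR replicates 1 to 6. All MNR values lay inside the control range, whose lowest value, in control replicate 6, rested on 8 reads. The log2 difference was 0.15 ± 0.28 (SE; limma adjusted p = 0.789), or -0.06 after median-ratio scaling and -0.07 without control replicate 6.

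miR-22-3p (MIMAT0000077), the guide of mir-22, was at 20488, 15355, 13734, 13803, 15711 and 10378 RPM in control replicates 1 to 6. It was at 17229, 11976, 20020, 24778, 17114 and 17313 RPM in MNR replicates 1 to 6. The ranges overlapped broadly: 1 MNR fetus, replicate 4, exceeded the highest control, and 5 of 6 exceeded the control median. The log2 difference was 0.27 ± 0.17 (SE; limma adjusted p = 0.366), 1.21-fold with an interval of 0.937 to 1.56, and it was 0.17 without control replicate 6 and 0.18 without MNR replicate 4. It was 0.06 after median-ratio scaling (interval -0.26 to 0.38).

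miR-22-5p (MIMAT0004495), the minor strand of the same hairpin, came closest to the threshold. It was at 21.3, 12.2, 29.5, 15.5, 16.1 and 17.5 RPM in control replicates 1 to 6, that is 9 to 56 reads. In MNR replicates 1 to 6 it was at 28.9, 21.1, 30.7, 34.3, 32.1 and 29.1 RPM, or 27 to 45 reads. Every MNR fetus lay above the control median, and 3 lay above the highest control, replicate 3. The groups overlapped: control replicate 3 lay above MNR replicates 1, 2 and 6, while 4 of the 6 controls lay below every MNR fetus. The means were 18.7 ± 6.08 and 29.4 ± 4.50 RPM (SD, n = 6), a log2 difference of 0.66 ± 0.22 (SE; limma adjusted p = 0.0919). This is 1.58-fold with an interval of 1.15 to 2.19, and the p ranked 37 among 481. It was 0.46 after median-ratio scaling (interval 0.01 to 0.91). Over all alternatives the adjusted p lay between 0.0612 and 0.419, and none brought it under the threshold. The reads themselves, 153 in controls and 219 in MNR, give a ratio per counted read of 1.51 (exact 95% interval 1.23 to 1.87, counting error only).

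miR-34a-5p (MIMAT0000255), the p53-responsive guide, was low and the most uneven of the 6. Controls held 12.5, 11.05, 12.1, 8.33, 12.7 and 7.80 RPM in replicates 1 to 6, from 4 to 23 reads each. MNR fetuses held 6.42, 10.96, 20.5, 32.5, 18.6 and 22.6 RPM, from 8 to 35 reads. MNR replicates 3 to 6 lay above every control, and MNR replicate 1, a female, lay below every control. The means were 10.7 ± 2.16 and 18.6 ± 9.15 RPM (SD, n = 6), with a log2 difference of 0.60 ± 0.31 (SE; limma adjusted p = 0.269). This is 1.52-fold with an interval of 0.961 to 2.40, and the difference was 0.40 after median-ratio scaling (interval -0.23 to 1.04). Its adjusted p was lowest without MNR replicate 1 (0.0901, log2 difference 0.85).

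miR-34a-3p (MIMAT0004557), its partner strand, had 1 read in control replicate 3 and 3 reads in MNR replicate 3. In the other 10 libraries it had 0 reads, which allows up to 1.66 to 5.85 RPM (3 reads, counting error only). The ratio of MNR to control reads was 3.17 with an exact 95% interval of 0.255 to 167, so no direction was detectable at this depth.

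In the authors' deposited table the unadjusted p-values for diet were 0.149 for miR-210, 0.401 for miR-21-5p, 0.711 for miR-21-3p, 0.00606 for miR-22-5p, 0.179 for miR-22-3p and 0.0683 for miR-34a-5p. Among these miRNAs, miR-22-5p thus had the lowest p in the authors' deposited table as well. Those p-values come from the same fetuses and are not a second source.

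**Figure D2:**
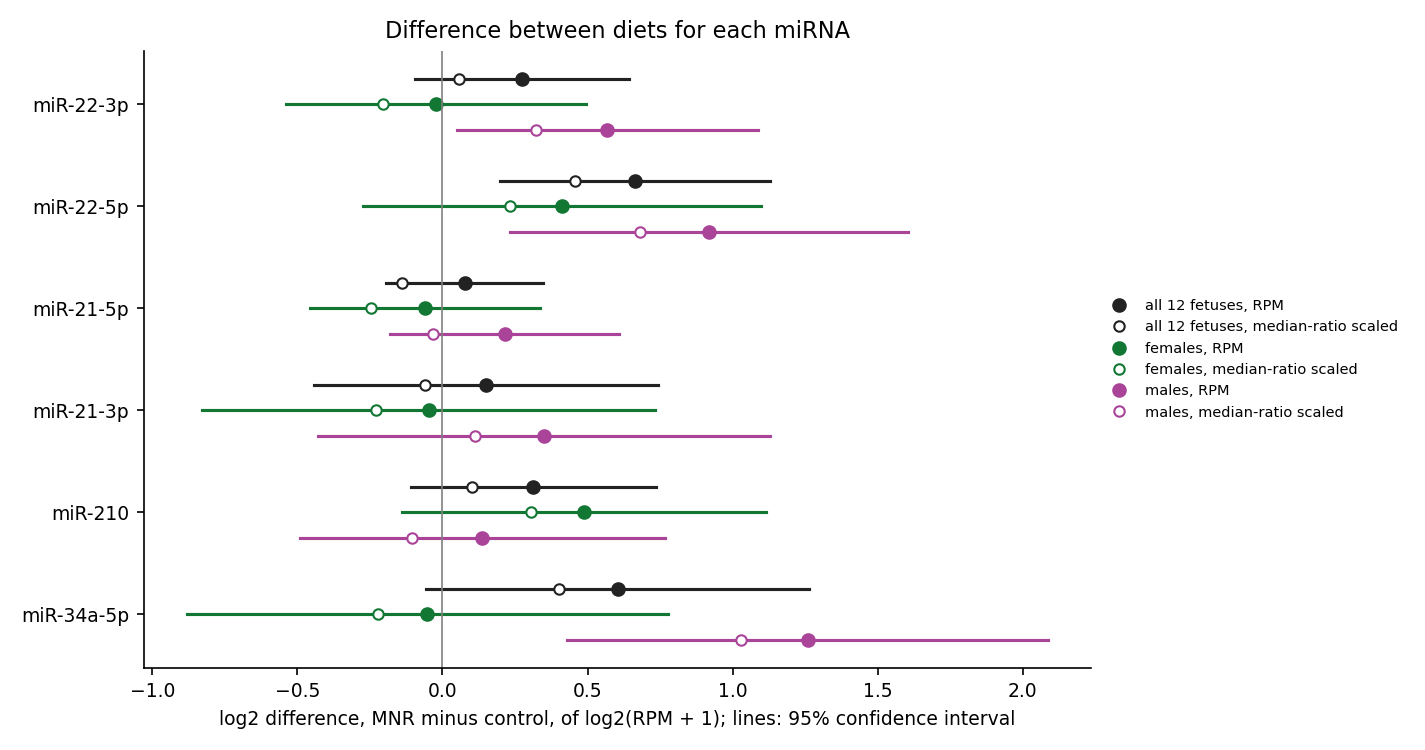
Log2 difference between diets, MNR minus control, of log2(RPM + 1) (horizontal axis) for each tested miRNA, over all 12 fetuses and within each sex. Filled points are RPM values with 95% confidence intervals from limma, and open points the same differences after median-ratio scaling, which lie to the left of every filled point. The intervals of miR-22-5p (all and males), miR-22-3p (males) and miR-34a-5p (males) lie above 0 before adjustment over 481 miRNAs.

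Within sexes, the question was whether the diets differed in female and in male fetuses. In males, miR-34a-5p was at 8.33, 12.7 and 7.80 RPM in controls and 32.5, 18.6 and 22.6 RPM in MNR. miR-22-5p was at 15.5, 16.1 and 17.5 RPM in control males and 34.3, 32.1 and 29.1 RPM in MNR males. miR-22-3p was at 13803, 15711 and 10378 RPM in control males and 24778, 17114 and 17313 RPM in MNR males. In each of these 3 miRNAs every MNR male lay above every control male, which 19.3% of all 481 tested miRNAs also did; none of the 6 lay wholly below, as 4.37% of all did. None of the 6 miRNAs passed in males (limma, adjusted over 481; 1.66% of all were called), and 3 did at an unadjusted p under 0.05, where 16.2% of all did. These 3 were all higher in MNR, as were 13.1% of all at that p, and 6 of the 6 differences were above 0, as were 74.2% of all.

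The male log2 difference was 1.26 ± 0.39 for miR-34a-5p (SE; limma adjusted p = 0.143), 2.39-fold with an interval of 1.35 to 4.25. It was 0.92 ± 0.32 for miR-22-5p (adjusted p = 0.186) and 0.57 ± 0.24 for miR-22-3p (adjusted p = 0.274). After median-ratio scaling these were 1.03 (interval 0.24 to 1.82), 0.68 (0.02 to 1.34) and 0.32 (-0.12 to 0.77). The male reads of miR-34a-5p, 30 in controls and 85 in MNR, give a ratio per counted read of 2.30 (exact 95% interval 1.504 to 3.62, counting error only). miR-210, miR-21-5p and miR-21-3p differed by 0.14, 0.21 and 0.35 in males, with intervals that took in 0, and with a fetus left out miR-210 ranged from 0.0067 to 0.32 and miR-21-5p from 0.14 to 0.33.

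In females none of the 6 passed with limma, and 0% of all tested miRNAs were called. At an unadjusted p under 0.05 there were 0 of the 6 and 10.2% of all, every one of the latter higher in MNR. Of the 6 differences 2 were above 0, as were 69.4% of all. miR-34a-5p was at 12.5, 11.05 and 12.1 RPM in control females and 6.42, 10.96 and 20.5 RPM in MNR females, so the MNR females lay on both sides of the controls. The female log2 differences were -0.05 for miR-34a-5p (interval -0.88 to 0.78), 0.41 for miR-22-5p (-0.27 to 1.10), -0.02 for miR-22-3p (-0.54 to 0.50) and 0.49 for miR-210 (-0.14 to 1.12). Those of miR-21-5p and miR-21-3p were -0.06 and -0.05. Single controls moved the female values: miR-22-5p was at 0.083 without control replicate 2 and 0.69 without control replicate 3, and miR-210 at 0.17 without control replicate 1 and 0.78 without control replicate 3.

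The difference between the male and the female response was tested directly and passed for none of the 6 (limma, 0% of all called). At an unadjusted p under 0.05, 1 of the 6 was counted, miR-34a-5p, against 4.99% of all. Its response was 1.31 ± 0.55 larger in males on the log2 scale (SE; limma, unadjusted p = 0.0306 and adjusted p = 0.783, n = 12 fetuses), and the adjusted p stayed between 0.45 and 0.997 over the alternatives. For the authors' deposited table the unadjusted male p was 0.0276 for miR-34a-5p, 0.000699 for miR-22-5p and 0.0957 for miR-22-3p, and the female p was 0.866, 0.363 and 0.972. Averaged over diets, none of the 6 passed for sex (limma, 0% of all called). At an unadjusted p under 0.05 there were 0 of the 6, against 3.53% of all, of which those higher in males made up 2.49% of all. Median-ratio scaling brought 1 of the 6, miR-21-3p, to that p, and the share of all tested miRNAs under that scaling is not given. miR-21-3p, chosen here after its values were seen, averaged 45.3 ± 7.62 RPM in females and 32.5 ± 13.7 RPM in males (SD, n = 6). The log2 difference, male minus female, was -0.55 by limma (unadjusted p = 0.0501, adjusted p = 0.987), and -0.37 without control replicate 6.

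The strands of a hairpin come from 1 transcript and are counted in the same library, so their shares of hairpin reads do not depend on how libraries are scaled. The log2 ratio tested below adds 1 RPM to each strand and so is not wholly free of scaling. Alternatives that kept all fetuses put the mir-22 difference between diets at 0.29 to 0.41. In mir-21 the 5p strand dominated in every fetus, with the 3p strand at 3.31 ± 1.25% of hairpin reads in controls and 3.40 ± 1.01% in MNR (SD, n = 6). In mir-22 the 3p strand dominated, and the 5p strand took 0.130 ± 0.0510% in controls and 0.165 ± 0.0172% in MNR. In mir-34a the 5p strand held 227 reads and the 3p strand 4, so that the 5p share was 98.3% (Clopper-Pearson 95% interval 95.6 to 99.5%). miR-210 has a single mature name in the table and no second strand to compare.

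The log2 ratio of 5p to 3p in mir-21 averaged 4.93 ± 0.61 in controls and 4.85 ± 0.48 in MNR (SD, n = 6; exact two-sided permutation test, p = 0.818, adjusted p = 0.818 over 2 hairpins). In mir-22 it averaged -9.59 ± 0.51 in controls and -9.20 ± 0.16 in MNR (exact p = 0.102, adjusted p = 0.203). The smallest p that 6 against 6 fetuses allow is 0.00216. All 6 MNR values of mir-22, from -9.46 to -9.02, lay inside the control range of -10.19 to -8.82. Control replicate 3 held the highest 5p share of mir-22, and without it the difference between diets grew from 0.39 to 0.55 and passed (exact permutation test, adjusted p = 0.039). No other of the 14 alternatives passed, and the adjusted permutation p reached 0.398.

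Whether both strands moved together over fetuses was checked for the 2 hairpins with both strands tested. The log2 levels of miR-22-5p and miR-22-3p had Pearson's r = 0.52 over 12 fetuses (permutation p = 0.0809, adjusted p = 0.162) and Spearman's rho = 0.56 (permutation p = 0.0627, adjusted p = 0.125). Without control replicates 2 and 4, the farthest from the median of miR-22-5p, r was 0.58. On levels scaled by median ratio r was 0.24 over the 12 fetuses. Within diets it was 0.05 in the 6 controls and 0.92 in the 6 MNR fetuses, a difference that was not tested. For miR-21-5p and miR-21-3p r was 0.17 (permutation p = 0.584, adjusted p = 0.584) and rho 0.12 (permutation p = 0.718, adjusted p = 0.718). It was 0.51 without MNR replicates 2 and 6, and 0.24 and 0.16 within controls and MNR.

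**Figure D3:**
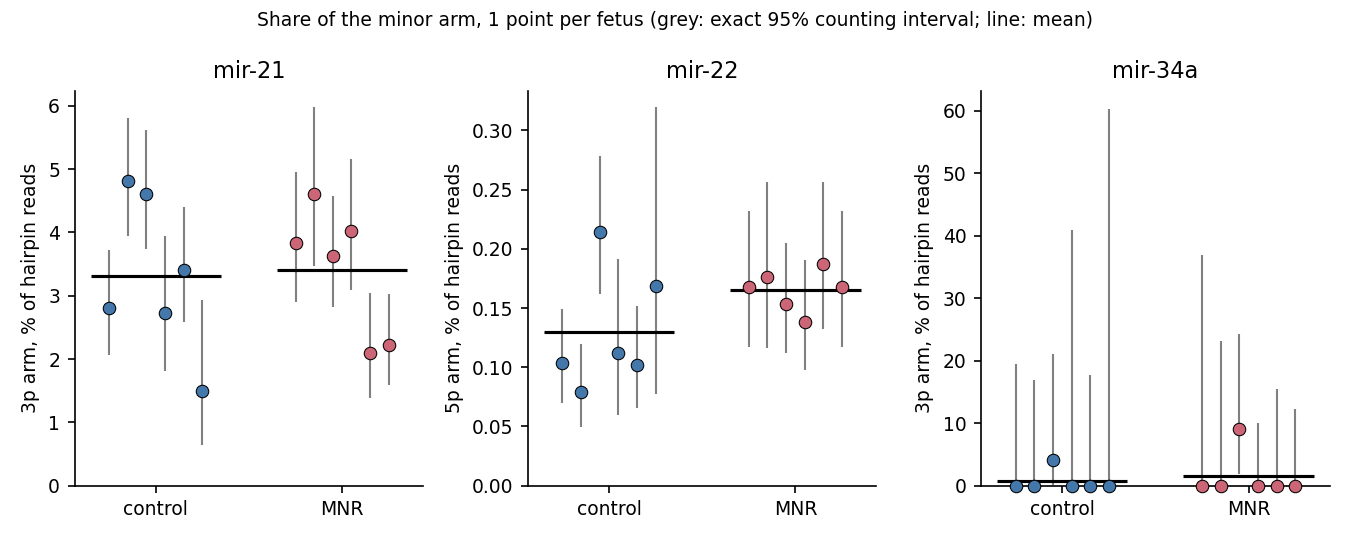
Share of the less abundant strand in the reads of each hairpin (vertical axes, %, from 0), 1 point per fetus with its exact 95% counting interval in grey and a line at the mean of 6 fetuses. The 3p share of mir-21 overlaps between the diets, the 5p share of mir-22 averages 0.130% in controls and 0.165% in MNR, and for mir-34a 10 of 12 fetuses are at 0 with wide counting intervals.

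Wider lists of hypoxia, p53 and injury place mir-210, mir-34a and mir-21 among miRNAs of the same themes. mir-22 is in none of these lists. The hypoxia list (miRNAs induced by low oxygen or acting on the hypoxia-inducible factors) had 15 tested names, with 0 called in either direction by limma and 4 at an unadjusted p under 0.05, all higher in MNR, beside 2.7% of all tested miRNAs called and 19.3% higher at that p. The 4 include both miR-199a-3p and miR-199b-3p, which hold the same values and so are 1 measurement counted under 2 names. edgeR, DESeq2 and voom called 0 of them, with 1, 0 and 0 at an unadjusted p under 0.05, and DESeq2 gave 6 no adjusted p. For this and the next lists, the share of all tested miRNAs at that p is given for limma only. The names above 0 numbered 11, where 78.4% of all tested miRNAs were above 0, and the median log2 difference was 0.31, beside 0.23 for all tested miRNAs. Its most abundant members were miR-107, a miRNA of lipid and insulin pathways, which averaged 1429 ± 128 RPM in the control fetuses against 1624 ± 77.4 RPM under restriction, and miR-199b-3p, which shares all its values with miR-199a-3p, at 212 ± 40.7 and 321 ± 141 RPM (SD, n = 6). Their limma adjusted p were 0.31 and 0.211, and miR-107 turned from 0.19 to -0.03 under median-ratio scaling.

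The p53 list (miRNAs transcribed or processed under p53) had 14 tested names, 0 called by limma, 3 at an unadjusted p under 0.05 (all higher), 11 above 0 and a median of 0.27. Of all tested miRNAs 2.7% were called, 19.3% were higher at an unadjusted p under 0.05 and 78.4% were above 0, so these counts stood near the background. edgeR, DESeq2 and voom called 0, with 0, 1 and 0 at an unadjusted p under 0.05, and DESeq2 gave 8 no adjusted p. It was led by miR-143-3p of smooth muscle, at 25632 ± 4069 and 23311 ± 10721 RPM (adjusted p = 0.587), and miR-16-5p, which restrains the cell cycle, at 1826 ± 166 and 1790 ± 232 RPM (SD, n = 6; adjusted p = 0.898). miR-34a-5p had the largest positive difference of this list and miR-34b-5p the lowest.

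The injury and inflammation list had 20 tested names, with 1 called higher and 0 lower by limma, 3 at an unadjusted p under 0.05 (all higher), 15 above 0 and a median of 0.13, below that of all miRNAs. The shares over all tested miRNAs were again 2.7%, 19.3% and 78.4%. edgeR, DESeq2 and voom called 0, with 3 each at an unadjusted p under 0.05, and DESeq2 gave 4 no adjusted p. The call was let-7i-5p, a let-7 family member known to target toll-like receptor 4 in bile duct cells. Controls averaged 4842 ± 1094 RPM and restricted fetuses 8026 ± 1942 RPM (SD, n = 6), 0.73 apart on the log2 scale with a limma adjusted p of 0.044. Every MNR fetus lay above every control for let-7i-5p, as in 3.12% of all tested miRNAs. Over the alternatives its adjusted p ranged from 0.0106 to 0.203 and its difference from 0.51 to 0.83, and the call was lost in 16 of 23 alternatives. The most abundant members were miR-181a-5p at 71285 ± 13912 and 74515 ± 7191 RPM (adjusted p = 0.781) and the neural miR-125b-5p at 7764 ± 1840 and 10405 ± 778 RPM (SD, n = 6; adjusted p = 0.0919). After median-ratio scaling the list medians were 0.10 for hypoxia, 0.09 for p53 and -0.08 for injury, beside 0.04 for all tested miRNAs.

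**Figure D4:**
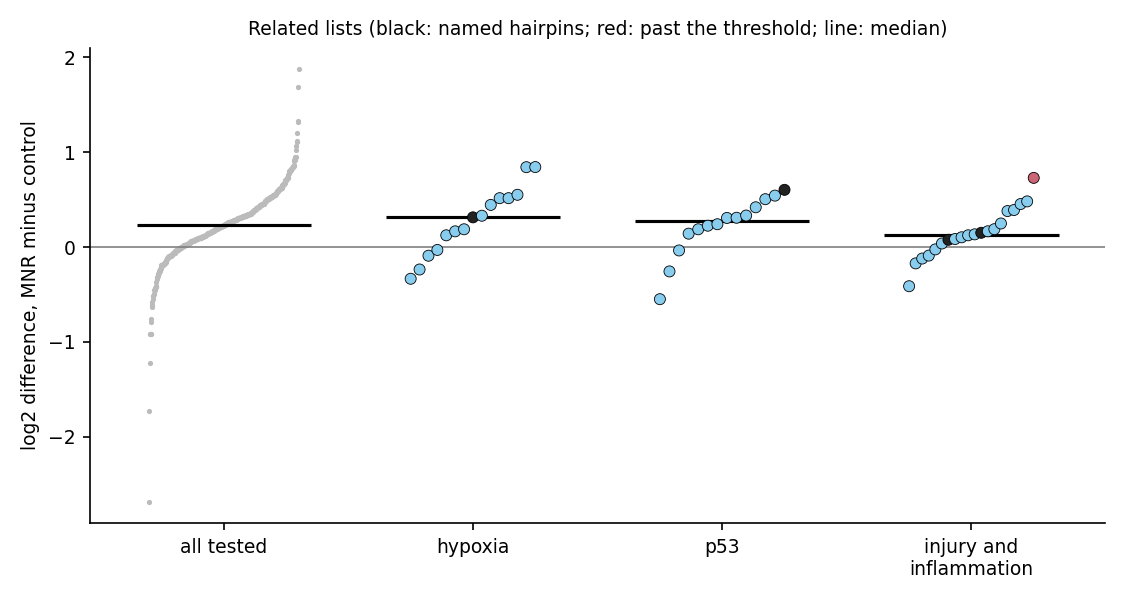
Log2 difference between diets, MNR minus control, of log2(RPM + 1) (vertical axis) for all 481 tested miRNAs (grey, sorted) and for the members of the hypoxia, p53, and injury and inflammation lists, with a line at each median. The hairpins described here are black, and let-7i-5p, the member past the threshold, is red; the list medians of 0.31, 0.27 and 0.13 stand beside 0.23 for all tested miRNAs.

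The miR-34 and miR-449 family has further members in the table, known from airway, choroid plexus and other ciliated cells. miR-34c-5p averaged 9.85 ± 4.04 RPM in control fetuses against 12.5 ± 5.70 RPM under restriction (SD, n = 6), a log2 difference of 0.31 with a limma adjusted p of 0.647. miR-449a was at 2.55 ± 2.05 and 4.87 ± 2.45 RPM (0.80, adjusted p = 0.307), from 20 and 36 reads. miR-34b-5p was at 1.55 ± 0.52 and 0.767 ± 0.438 RPM (-0.55, adjusted p = 0.306), from 11 and 6 reads. Unlike miR-34a-5p, miR-34c-5p overlapped in males, with MNR males at 5.65 to 12.05 RPM and control males at 7.80 to 11.9 RPM. For miR-34b-5p every MNR male lay below every control male, as in 4.37% of all tested miRNAs. MNR males held 0 to 0.84 RPM and control males 1.34 to 2.38 RPM, from only 2 and 5 reads. miR-449b-5p had 2 reads in controls and 4 in MNR. miR-590-5p, which is grouped with miR-21-5p in target prediction databases, was below 1 RPM in every fetus.

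Summed markers of other cell types were set beside these values. The microglia and leukocyte list (10 of 12 rows with reads, miR-146a-3p and miR-155-3p at 0) held 1468 to 2388 RPM in controls and 1505 to 2212 RPM in MNR. The vessel list (6 of 6 rows) held 24149 to 37163 and 16597 to 48200 RPM. The choroid plexus and ciliated list (8 of 9 rows, miR-211-3p at 0) held 609.4 to 2123 and 759.4 to 1929 RPM, and the oligodendrocyte list (5 of 5) 249.9 to 371.9 and 330.8 to 502.5 RPM. Erythroid miRNAs (5 of 5) held 2165 to 3920 and 3117 to 5710 RPM (exact permutation p = 0.0357, adjusted p = 0.143 over 8 lists). Of these, miR-451a passed for diet by itself, at 395.5 RPM on average and a log2 difference of 1.20 (limma adjusted p = 0.00922). So did 2.7% of all tested miRNAs. The most abundant, miR-486-5p at 3127 RPM on average, did not (0.35, limma adjusted p = 0.268). Nor did miR-486-3p, miR-144-5p and miR-144-3p (limma adjusted p = 0.201, 0.462 and 0.215). Over 13 alternatives the adjusted permutation p of the erythroid sum lay between 0.0462, without control replicate 1, and 0.519. Only 1 of the 13 passed. Median-ratio scaling took the erythroid difference from 1097 to 612.8 RPM. Hindbrain miRNAs (3 of 4, miR-10a-3p at 0) held 698.8 to 7729 and 425.3 to 2205 RPM (exact permutation p = 0.0693, adjusted p = 0.147), and without control replicate 6 the difference went from -1791 to -822.8 RPM. Over 13 alternatives the adjusted permutation p of the hindbrain sum lay between 0.0462, without control replicate 1, and 0.333. Again only 1 of the 13 passed. The liver miRNA miR-122-5p was the 1 list below controls past the threshold, at 1.47 to 9.75 and 0 to 1.37 RPM (exact permutation p = 0.00216, the smallest possible, adjusted p = 0.0173), with miR-122-3p at 0. Such levels of miR-122-5p rest on few reads in every fetus, since 1 read was worth 0.527 to 1.95 RPM. Without any 1 of the MNR fetuses its adjusted p lay between 0.0693 and 0.139, and without control replicate 6 its difference went from -3.31 to -2.07 RPM. The part of these cell types in the levels of miR-210, miR-21, miR-22 and miR-34a was not tested.

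Across the 12 fetuses, the tested miRNAs whose log2 levels ran closest to each main strand were found by Pearson's r, as a description of libraries that share diet, depth and composition. For miR-210 they were miR-676-3p (r = 0.83), miR-218-2-3p (0.79) and miR-4677-3p (0.77), where the median r over all tested miRNAs was 0.015. For miR-21-5p they were miR-28-3p (0.86), miR-25-3p (0.84) and the inflammation-linked miR-146a-5p (0.83), with a median of 0.26. For miR-22-3p they were miR-1197, miR-942 and miR-378a-3p (each 0.88, median 0.34). For miR-34a-5p they were miR-323a-5p (0.86), the leukocyte miRNA miR-142-5p (0.83) and miR-424-5p of the hypoxia list (0.83, median 0.24).

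The authors' deposited table also gives 1 pooled read count per row, which exceeded or equalled the summed reads of the 12 cortex libraries in every row, and these libraries held 16.9% of the pooled reads. In the authors' deposited table miR-21-5p had 461308 pooled reads, of which the cortex libraries made up 3.76%, and miR-21-3p had 21648, with 2.93% in cortex. The rest of the pooled reads thus held miR-21-5p at 5865 reads per 1000000, 5.22 times the 1124 of the cortex libraries. miR-22-3p went the other way, at 12804 reads per 1000000 in the rest and 16660 in cortex, as did miR-210 at 42.3 and 62.6 and miR-22-5p at 16.3 and 24.1. miR-34a-5p stood at 24.2 reads per 1000000 in the rest and 14.7 in cortex. What was sequenced for the rest is not given in the sources used here, so these ratios have no replicate error and no test.

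**Figure D5:**
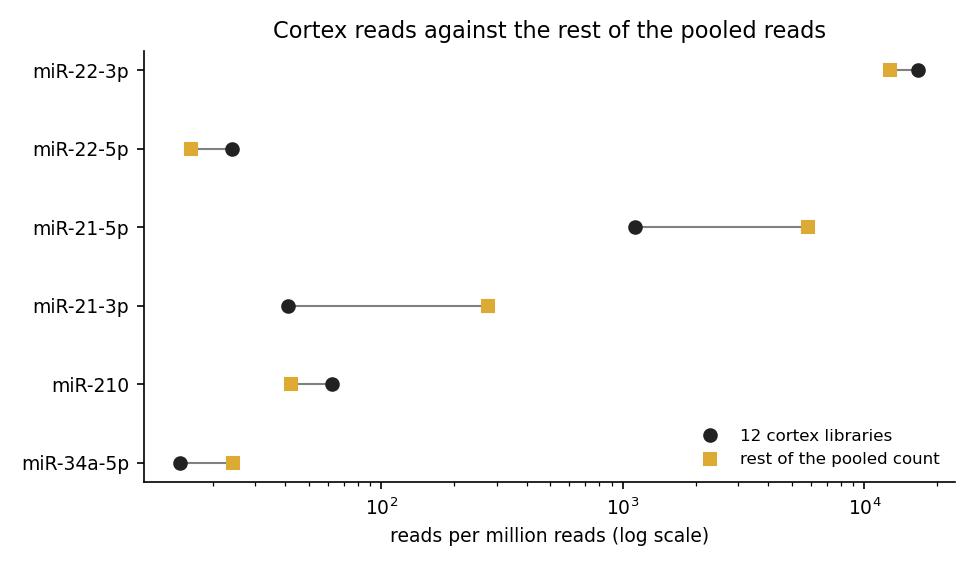
Reads per 1000000 (horizontal axis, log scale) of each tested miRNA in the 12 cortex libraries together (black circles) and in the rest of the authors' pooled count (yellow squares). miR-21-5p and miR-21-3p are lower in cortex by 5.22 and 6.74 times, miR-34a-5p is lower, and miR-22-3p, miR-22-5p and miR-210 are higher.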

How the data were processed

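Small RNA libraries were made from column-purified RNA of fetal frontal cortex, per the labels' protocols. The authors deposited RPM values, scaled by the authors to the counted reads of each library and rounded to 2 decimals, beside a pooled read count per row and unadjusted p-values. No source used here gives the aligner or counter. The submitters' processing notes name the human build hg18 with no role. Names are human miRBase names, given to reads of baboon RNA.

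Read numbers follow from the step that 1 read makes in RPM, and 100% of the values above 0 came out whole within 0.0051 RPM. Of 1921 mature names, 202 were in several rows, and the row with most pooled reads was kept. RPM counts such repeats, which were 38.5 to 44.3% of reads per library. The least different pair of libraries had a chi-square of 24.7 per degree of freedom, and all 12 count as separate samples. The labels name no animals, so p-values measure the spread between these samples.

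limma 3.58.1 with a trend (R 4.3.3) was run on log2(RPM + 1) for 481 miRNAs that averaged 1 RPM or more, and p-values adjusted after Benjamini-Hochberg were called under 0.05. The pseudocount understates changes of low miRNAs. Diet used all 12 fetuses; the sex contrasts used 1 fit of 4 cells of 3 fetuses. Arm ratios and list sums had exact two-sided permutation tests, correlations 100000 permutations. edgeR 4.0.16, DESeq2 1.42.0 and voom on recovered reads, other scalings, filters and pseudocounts, and leaving out each fetus were alternatives. The fits were tested on simulated reads with 1 fixed spread, no common shift between diets, and changes larger than the diet differences described here over all fetuses. That test therefore does not cover differences of the size found for these hairpins. Intervals on reads cover counting error only, without molecular identifiers.

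The hairpins and lists were chosen with earlier results of these data known. Named were all mature forms of the 4 hairpins, the 2 most abundant and any called member of each list, relatives in the miR-34 and miR-21 families, and the 3 miRNAs most alike. Family relatives replace a planned match by seed. Nothing in the labels pairs fetuses or names a batch.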

Additional observations from a re-analysis of the deposited data

Results flagged for a closer look

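miR-34a-3p gave 2 fetuses that stood apart from the rest of their diet. Control replicate 3 held 0.53 RPM, a single read, and MNR replicate 3 held 2.05 RPM, or 3 reads, while the other 5 fetuses of each diet were at 0. With so few reads any library that holds one is apart from the others. The measure used, the gap to the nearest fetus over the range of the group, sets apart about 1 in 20 groups by chance, and 18 groups were looked at, those of the 7 miRNAs and of both arm ratios in each diet.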

How the results depend on the processing

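None of the 6 miRNAs passed for diet, over all fetuses, within a sex or between the sexes, under any alternative run. For diet over all fetuses, miR-210, miR-22-3p, miR-22-5p and miR-34a-5p kept their direction throughout. Near-zero differences turned with the scaling. Under TMM, miR-21-5p, miR-21-3p and miR-181a-5p were at -0.11, -0.031 and -0.10. Under median-ratio scaling they were at -0.14, -0.059 and -0.13, with miR-107 at -0.028. With edgeR they were at -0.11, -0.17 and -0.11 (miR-107 -0.0065), with DESeq2 at -0.14, -0.18 and -0.13 (miR-107 -0.034), and with voom at -0.12, -0.14 and -0.11 (miR-107 -0.0081). In males, median-ratio scaling put miR-21-5p at -0.032 and miR-210 at -0.10. The cause was not tested.

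With each fetus left out, the diet difference ranged from -0.072 to 0.30 for miR-21-3p, -0.027 to 0.13 for miR-181a-5p and -0.077 to 0.042 for miR-16-5p. In females it ranged from -0.18 to 0.19 for miR-22-3p, -0.26 to 0.10 for miR-21-3p, -0.45 to 0.32 for miR-34a-5p and -0.17 to 0.088 for miR-21-5p, and in males from -0.019 to 0.63 for miR-21-3p. The arm ratio difference ranged from 0.27 to 0.55 for mir-22 and from -0.20 to 0.13 for mir-21. Summed lists (MNR minus control, RPM) ranged from 781.9 to 1301 for erythroid, -2229 to -822.8 for hindbrain, -3.72 to -2.07 for liver, -49.8 to 295.9 for choroid plexus and -5588 to 732.8 for vessel. Under median-ratio scaling microglia, choroid plexus and neuron sums turned to -72.6, -73.6 and -6399 RPM.

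The count of all called miRNAs for diet was 13 as reported, 1 with a pseudocount of 5 or no filter, 7 with sex as a term, 3 with TMM, median-ratio scaling, edgeR or voom, 9 with DESeq2, 16 with a mean of at least 10 RPM, 17 with RPM over 1 row per mature name, and 1 to 26 with a fetus left out; in males it was 8, and 0 to 10 with a fetus left out, and in females 0, and 0 to 2. No paired analysis was possible because the labels give no replicate numbers: those used here follow the order of the records and tie no fetuses together. Depth limits miR-34a-5p (4 to 35 reads per fetus) and miR-34a-3p most.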
